A study of Mus musculus with 18 samples.

Results

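Messenger RNAs encoded by the mitochondrial genome were followed in 2 mouse cancer cell lines, with and without targeting of Ncor1. The group consisted of 10 genes taken by symbol: ND1, ND2, ND4, ND5 and ND6 of complex I, CYTB of complex III, COX1, COX2 and COX3 of complex IV, and ATP6 of the ATP synthase. All 10 were found among the 32015 gene symbols of both tables, where mitochondrial genes are written in capitals without the mt prefix. The mitochondrial genome is a small circle that is transcribed in full from each strand, and the long transcripts are then cut at the transfer RNAs that lie between the coding genes. The mRNAs receive short poly(A) tails in mouse, as in human, which is why a poly(A)-selected library recovers them, and nearly all other subunits of the respiratory chain are encoded in the nucleus. Ncor1 encodes a corepressor that acts on genes of the nucleus, the source of every factor that transcribes, processes or degrades mitochondrial mRNA.

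The study sequenced poly(A) RNA from Hepa1-6, a mouse liver cancer line, and B16, a mouse melanoma line. In each line 3 libraries carried the control guide sgCtrl and are labelled wild type, 3 carried the guide sgNcor1-1 and 3 the guide sgNcor1-2, both labelled Ncor1 knockout, which makes 18 libraries in 6 groups. Replicates are numbered 1 to 3 in every group. The labels give no dose or time and do not say whether a knockout is 1 clone or a pool, or whether numbered libraries were grown as separate cultures. The p-values therefore cover only the spread between these libraries, part of which may be technical. Library totals ran from 17689335 to 30819689 counts in Hepa1-6 and from 15663983 to 25263749 in B16. Ncor1 mRNA was 266, 264 and 222 CPM (counts scaled to a common library size with TMM factors) in the Hepa1-6 controls against 197, 130.4 and 177 for the guide sgNcor1-1 and 149, 140.4 and 186 for sgNcor1-2. All 6 Hepa1-6 knockout libraries lay below the 3 controls, but the fitted log2 fold change of -0.62 (SE 0.17) did not pass edgeR's quasi-likelihood test (adjusted p = 0.223). In B16, Ncor1 was 326, 279 and 326 CPM in the controls, 367, 239 and 296 with sgNcor1-1 and 352, 236 and 301 with sgNcor1-2, so that the groups overlapped (log2 fold change -0.06, SE 0.19, adjusted p = 1). A guide that shifts the reading frame need not lower the mRNA, so this level does not settle whether Ncor1 protein was lost. All 12 melanocyte markers averaged at least 1 CPM in B16, while 8 of 15 hepatocyte markers did so in Hepa1-6, where Ttr, Ahsg, Fga and Serpina1a averaged 0.0403, 0.0142, 0.0127 and 0.0111 CPM and Alb 158.5 CPM. The B16 library sgNcor1-1 1 stood apart, with the fewest genes detected (13982) and the lowest scaling factor (0.792), and the 3 Hepa1-6 libraries numbered 1 stood apart from those numbered 2 and 3 across the transcriptome: 16.2% of genes tested had all 3 above the other 6, and 16.4% all 3 below.

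The genes lie on the mitochondrial chromosome of mm10, in the order ND1 (chrM:2751-3707), ND2 (chrM:3914-4951), COX1 (chrM:5328-6872), COX2 (chrM:7013-7696), ATP6 (chrM:7927-8607), COX3 (chrM:8607-9390), ND4 (chrM:10167-11544), ND5 (chrM:11742-13565), ND6 (chrM:13552-14070) and CYTB (chrM:14145-15288), by the GENCODE M21 annotation. Each is a single exon, 9 are read from the heavy strand and ND6 alone from the light strand. Neighbouring genes touch: ATP6 shares 43 bases with ATP8 and 1 base with COX3, ND4 shares 7 bases with ND4L, and ND5 shares 14 bases with ND6 on the opposite strand. Nothing in the sources says that the libraries kept strand, so reads in that stretch of ND5 and ND6 cannot be told apart, nor can antisense RNA of either strand.

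Stretches of the mitochondrial genome have been copied into the nuclear chromosomes, and annotated copies with at least 95% identity over at least 200 bases were found for 7 of the 10 genes, all but ND1, ND6 and CYTB. One block on the minus strand of chromosome 1, chr1:24611535-24616197 (mm10), holds 7 annotated copies, among them copies of ATP6, COX2, COX3, part of ND4 and part of COX1. The copy of ATP6, Gm10925 (chr1:24613974-24614651), matched ATP6 at 678 of 678 bases. The copies of COX2 (Gm28661) and COX3 (Gm28437) matched at 681 of 681 and 783 of 783 bases, and that of ND4 (Gm28439) at 876 of 876. The copy of COX1 there, Gm29216 (chr1:24615706-24616197), differed at 1 of 483 bases. A copy on chromosome 2, Gm13340 (chr2:22588103-22589647), differed at 37 of 1545. The first 90 bases of ATP6 and of Gm10925 show why a short read cannot place itself between them, since the strings are the same; all sequences are from GENCODE M21 transcripts, 5′ to 3′.
ATP6: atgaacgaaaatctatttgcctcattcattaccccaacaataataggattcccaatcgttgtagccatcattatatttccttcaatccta
Gm10925: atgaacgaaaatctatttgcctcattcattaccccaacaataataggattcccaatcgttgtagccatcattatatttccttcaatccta

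In COX1 the same comparison, over bases 1063 to 1152 counted from 1 at its 5′ end, shows the base that separates the chromosome 1 copy and a pair that separates the chromosome 2 copy. Capitals mark bases that differ from COX1: A1066T in Gm29216, and T1072C and C1134T in Gm13340.
COX1: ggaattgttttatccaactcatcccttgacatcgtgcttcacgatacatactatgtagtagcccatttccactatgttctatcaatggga
Gm29216: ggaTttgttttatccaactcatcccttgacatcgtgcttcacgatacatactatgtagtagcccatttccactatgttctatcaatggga
Gm13340: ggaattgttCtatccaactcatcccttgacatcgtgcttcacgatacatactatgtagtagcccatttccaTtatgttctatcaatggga

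The deposited values carried a trace of this sharing. They are expected counts, in which a read that matches several genes is divided among them, so that a gene with shared reads takes values with a fraction. ND1, ND2, ND5, ND6 and CYTB, which have no copy in the block on chromosome 1, had whole numbers in all 18 libraries within 0.01. The 5 genes with a copy in that block did not: ATP6 had fractions in 18 libraries, COX1, COX2 and COX3 in 15 each, and ND4 in 8. The ATP6 and Gm10925 values added up to a whole number in 18 of 18 libraries, and no other row did so with ATP6 in more than 4. For COX1, COX2 and COX3 the best partner among the rows analysed reached 3 or 4 libraries, and values for their copies and that of ND4 on chromosome 1 were not analysed here. COX2 and COX3 were identical to their copies over nearly their whole length, so their levels below are read as shares of divided reads. Which rows took the rest was not seen, and the part of COX1 and ND4 reads given to copies is not known either.

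Of the reads given to ATP6 or Gm10925, the ATP6 row held 1.71% to 4.75% in Hepa1-6 and 0.796% to 7.42% in B16. In Hepa1-6 controls 1, 2 and 3, ATP6 stood at 95.3, 60.3 and 74.3 CPM beside 3279, 3165 and 4055 CPM for Gm10925. In B16 controls the values were 27.2, 13.9 and 28.0 CPM for ATP6 and 1697, 1736 and 699.6 for Gm10925. The row called ATP6 was therefore a small and variable slice of the reads that fit ATP6, and the sum of the pair, written ATP6 + Gm10925 below, is given beside it.

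**Figure D1:**
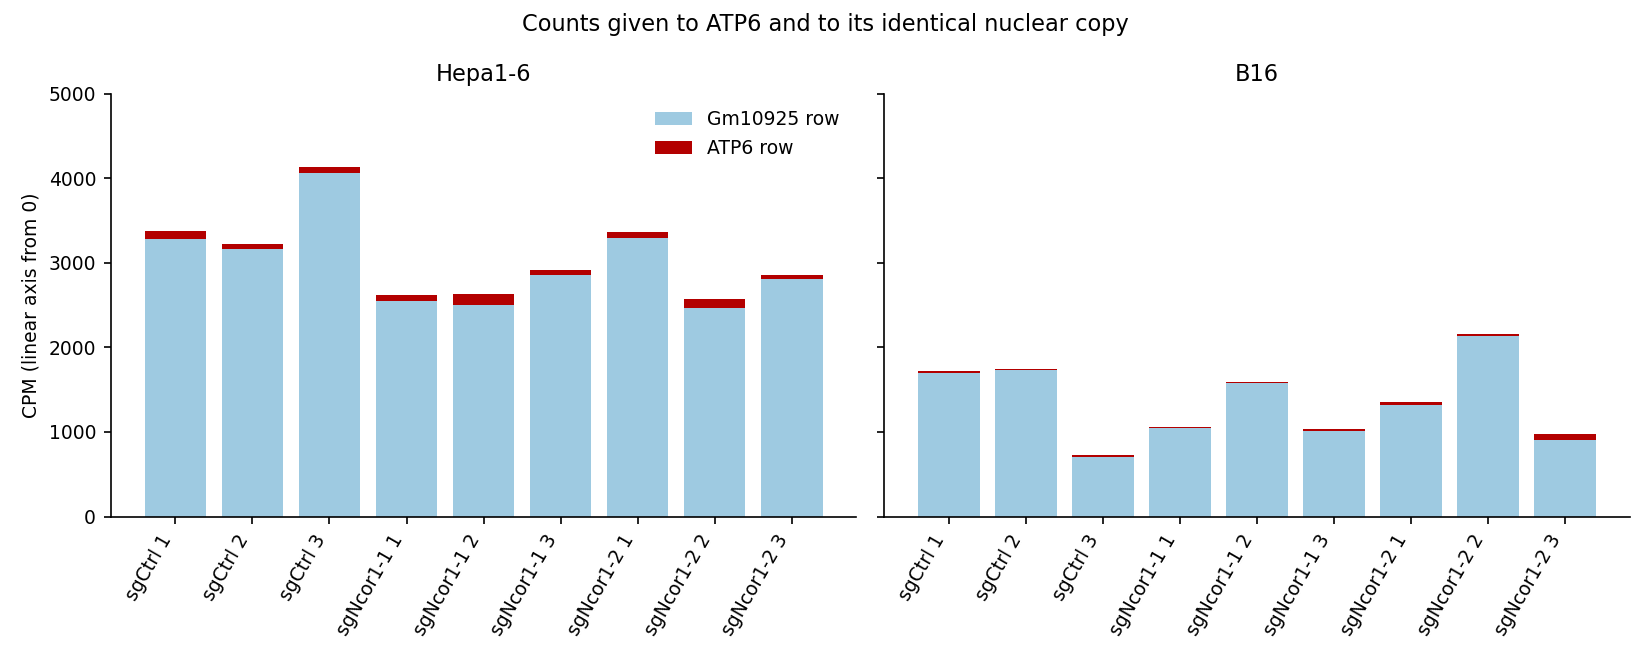
CPM (linear axis) given to ATP6 (red) and to its identical copy Gm10925 (blue) in each of the 9 libraries of Hepa1-6 (left) and B16 (right), stacked. The ATP6 slice never exceeded 7.42% of a bar.

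Together the 10 genes took 1.94% to 3.10% of all counts in Hepa1-6 libraries and 1.34% to 2.76% in B16 libraries. COX1, the catalytic subunit of cytochrome c oxidase, dominated them: it was the most abundant of all genes in every Hepa1-6 library and ranked between 1 and 3 in B16. It made up 54.2% to 60.8% of the summed counts of the 10 in Hepa1-6 and 68.1% to 91.2% in B16. The sums here and below hold only the rows of the 10 genes. Gm10925, at 2462 to 4055 CPM in Hepa1-6 and 699.6 to 2133 in B16, is not in them, nor are reads given to other copies. Per kilobase of gene, COX1 reached 10296 ± 888 CPM (SD, n = 3) in Hepa1-6 controls and 7589 ± 1425 in B16 controls. Among the 10 rows as listed, ND1 came next, with 3524 ± 619 CPM per kilobase in Hepa1-6 and 944 ± 392 in B16. ND1 sits at the joint between the membrane and matrix arms of complex I. The 3 COX1 values lay above all ND1 values in both lines.

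In Hepa1-6 controls the order per kilobase continued with CYTB, the haem-bearing core of complex III, at 2780.4 ± 467 CPM, and with the proton-pumping subunits ND2 (2028 ± 362) and ND4 (1581 ± 275). Neighbours among ND1, CYTB, ND2 and ND4 overlapped between libraries, so their order was not resolved. ND5, the last of the large pumping subunits, was lower than all of these at 379 ± 115 CPM per kilobase, and its 3 values lay above those of ND6 (142 ± 31.3), the single subunit read from the light strand, whose mRNA in human is known to carry little or no poly(A) tail. In B16 controls CYTB (729 ± 648 CPM per kilobase), ND4 (499 ± 258), ND5 (459 ± 207), ND2 (405 ± 209) and ND6 (168 ± 51.7) followed ND1, with every neighbouring pair overlapping, COX3 after ND6 included. At the bottom stood ATP6, COX2 and COX3, the 3 genes copied over nearly their whole length on chromosome 1. In Hepa1-6 controls they reached 113 ± 25.9, 61.0 ± 70.8 and 53.0 ± 26.9 CPM per kilobase, and their ranges overlapped from one to the next, as did those of ND6 and ATP6. ATP6 + Gm10925 reached 5252 ± 711 CPM per kilobase in Hepa1-6 controls and 2057 ± 856 in B16 controls. Its lowest Hepa1-6 control value, 4736, lay above the highest of ND1, 3953, so the order given here holds only for the rows as listed. In B16 controls the pair and ND1 overlapped.

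COX2 and COX3, which with COX1 form the core of cytochrome c oxidase, were listed at scattered low values. In Hepa1-6 libraries COX2 ran from 7.45 to 97.6 CPM and COX3 from 0 to 62.7 CPM, with COX3 listed at 0 in 3 of 9 libraries. In B16, COX2 ran from 0 to 28.5 CPM and COX3 from 0 to 132.4, each listed at 0 in 2 of 9 libraries. The limit that a count of 0 allows, 3 counts, corresponds to between 0.0973 and 0.192 CPM per library total, for counting error alone. A value of 0 for a gene with an identical nuclear copy may be a share of divided reads and does not measure absence of the mRNA.

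**Figure D2:**
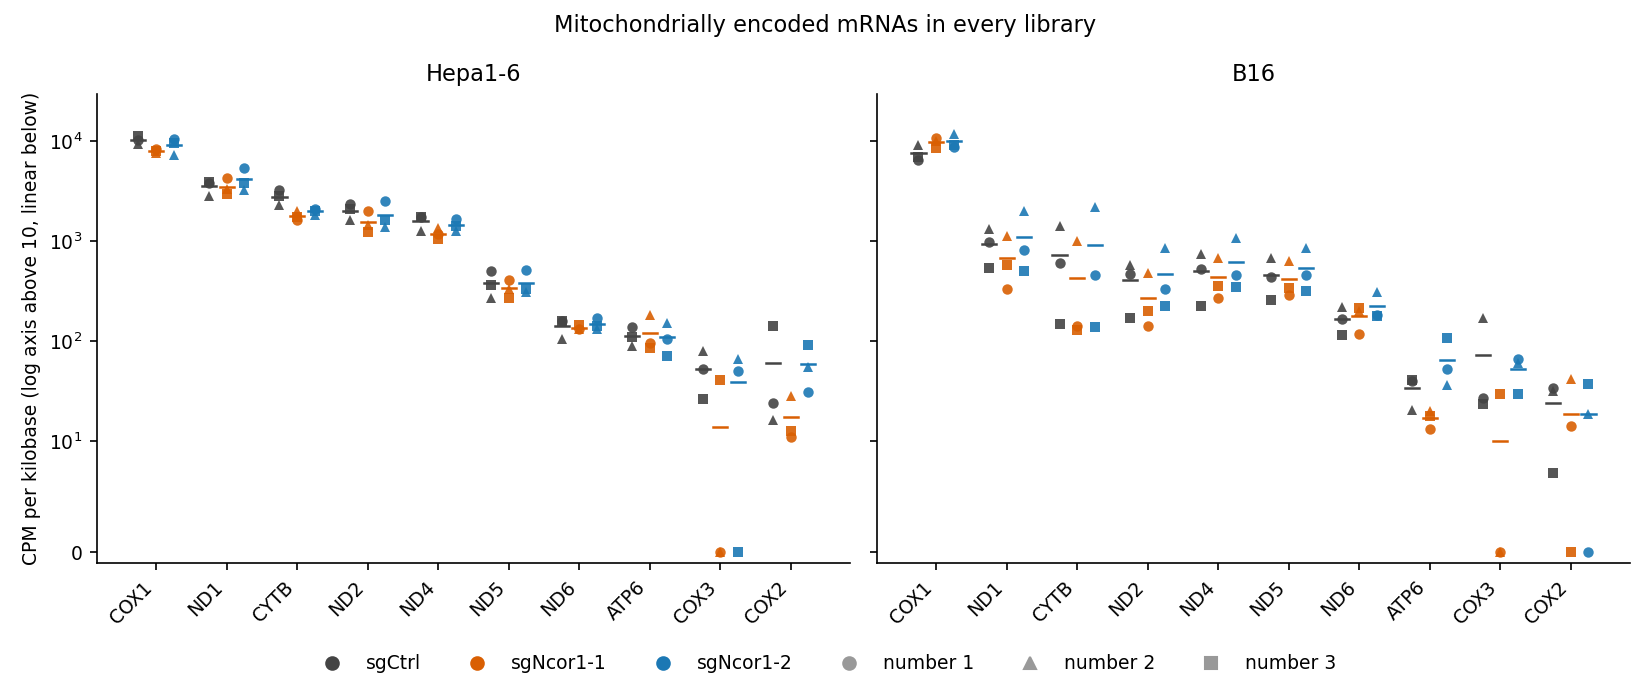
Level of each gene in CPM per kilobase (log axis above 10, linear below) in Hepa1-6 (left) and B16 (right). Each point is a library, coloured by guide and shaped by library number, and short bars are group means of 3; COX1 lies highest in both lines, and ATP6, COX3 and COX2 lie lowest in Hepa1-6.

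Ncor1 knockout and control libraries were compared first in Hepa1-6. None of the 10 genes passed edgeR's quasi-likelihood test with Benjamini-Hochberg adjustment over all 12458 genes (0.201% of genes tested were called), and 1 of the 10 had an unadjusted p under 0.05. That gene was CYTB. Its level was 3685, 2621 and 3236 CPM in controls 1, 2 and 3, 1862, 2317 and 1987 with sgNcor1-1 and 2390.3, 2109 and 2311 with sgNcor1-2. All 6 knockout libraries lay below all 3 controls. No other gene of the 10 separated so, and 9.13% of genes tested did, 5.24% in that direction. The fitted difference was -0.56 on the log2 scale (SE 0.16, adjusted p = 0.245), with -0.63 for sgNcor1-1 and -0.49 for sgNcor1-2, which share their controls. DESeq2's Wald test called it (adjusted p = 0.0253), alone among the 10, where it called 2.76% of all genes; edgeR with the library number as a block called none of the 10 (4.21% of genes tested).

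ND1, ND2, ND5 and ND6, whose values are also whole numbers, had fitted changes closer to 0. ND1 was 3643, 2693 and 3783 CPM in controls, 4106, 3152 and 2831 with sgNcor1-1 and 5182, 3082 and 3693 with sgNcor1-2, a log2 fold change of 0.12 (SE 0.22). ND2 was 2424, 1690.2 and 2199.9 CPM in controls, 2098, 1502 and 1294 in sgNcor1-1 libraries and 2621, 1424 and 1676 in sgNcor1-2 libraries (log2 fold change -0.25, SE 0.24). Control and knockout ranges overlapped for both genes. ND5 gave a log2 fold change of -0.07 (interval of 2 SE each way, -0.56 to 0.42) and ND6 one of 0.01 (-0.33 to 0.34). Both intervals include 0 and do not show that the levels were equal.

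COX1 stood at 15729.8, 14633 and 17359.5 CPM in Hepa1-6 controls, 13001, 11652 and 12331 in sgNcor1-1 libraries and 16358, 11222 and 14927 in sgNcor1-2 libraries. The 3 sgNcor1-1 libraries lay below all controls and the sgNcor1-2 libraries overlapped them (log2 fold change for both guides -0.27, SE 0.18, adjusted p = 0.605). ND4 gave -0.27 (SE 0.18). ATP6 + Gm10925 was 3375, 3225 and 4129 CPM in controls, 2613, 2625 and 2911 with sgNcor1-1 and 3358, 2566 and 2854 with sgNcor1-2. On the log2 scale the fitted difference of the pair was -0.34 (SE 0.16, adjusted p = 0.473), where the ATP6 row alone gave 0.03 (SE 0.31). The pair was below the control of the same number in 6 of 6 libraries, a pattern of 12.9% of genes tested. The labels do not say that a shared number ties libraries together, although 30.8% of Hepa1-6 genes tested were called by number. Over all 10 genes the median log2 fold change was -0.26 with 7 below 0, beside a median of 0.02 over all genes tested. Summed over the 10, controls held 29040.4, 24060.5 and 29908 CPM, sgNcor1-1 libraries 23562, 21308 and 20554 and sgNcor1-2 libraries 30027, 20394 and 25336, so that the sgNcor1-2 range covered that of the controls.

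In B16 none of the 10 genes passed the same test (0.0324% of genes tested were called), and none had an unadjusted p under 0.05; DESeq2 called none either (0.349% of genes tested), nor did edgeR with the library number as a block (0.389%). COX1 was 10110.1, 14233 and 10832 CPM in controls, 16623, 15479 and 13317 with sgNcor1-1 and 13639.5, 18275 and 14169.9 with sgNcor1-2. Every knockout library exceeded the control of its own number, by 0.12 to 0.72 on the log2 scale, a pattern of 5.74% of genes tested, while the unpaired ranges overlapped. On the log2 scale knockout and control differed by 0.38 (SE 0.21, adjusted p = 1; adjusted p = 0.568 with the library number as a block). CYTB ran from 147.7 to 2497 CPM over the 9 B16 libraries, and its log2 fold change of -0.22 carried an SE of 0.97. With such a spread the interval of 2 SE each way, -2.16 to 1.72, includes large changes in either direction. That fit left out the library number, so its SE includes the differences between numbers given below.

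ND1, ND2, ND4, ND5 and ND6 in B16 had log2 fold changes between -0.18 and 0.25, with SEs from 0.29 to 0.53. In none of the 10 genes did the 6 knockout libraries separate from the 3 controls, as 2.18% of genes tested did. The median over the 10 genes was -0.07 beside 0.01 over all genes tested. Summed over the 10, where COX1 weighs most, controls held 13921, 20259.9 and 12592 CPM, sgNcor1-1 libraries 18225, 20448 and 15495 and sgNcor1-2 libraries 16944, 26839.8 and 16311. The sum was above the control of the same number in 6 of 6 knockout libraries, by 0.01 to 0.41 on the log2 scale, opposite in direction to the median, and the groups overlapped. In the ATP6 row the guides went apart: 9.11, 13.6 and 12.1 CPM with sgNcor1-1 and 36.1, 24.8 and 72.6 with sgNcor1-2, around controls of 27.2, 13.9 and 28.0. The difference between the guides was -1.94 (SE 0.43, adjusted p = 1), and for ATP6 + Gm10925 it was -0.29 (SE 0.40). With the reads of the identical copy added, the sgNcor1-1 and sgNcor1-2 ranges overlapped, at 1029 to 1587 and 978.1 to 2158 CPM.

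Between the guides, none of the 10 genes was called in Hepa1-6 or in B16 (0% of genes tested in each), with 0 and 1 of them at an unadjusted p under 0.05; DESeq2 called 0 genes in either line. In single-guide comparisons with control, again none of the 10 was called (0.0482% and 0.0803% of genes tested for sgNcor1-1 and sgNcor1-2 in Hepa1-6, 0.0081% for each in B16), with 2, 1, 1 and 1 of the 10 at an unadjusted p under 0.05, and DESeq2 called none of the 10 (1.05%, 1.22%, 0.235% and 0.251% of genes tested). COX2 in Hepa1-6 was 7.45, 19.5 and 8.59 CPM with sgNcor1-1 and 21.2, 37.5 and 62.0 with sgNcor1-2, against 16.4, 11.2 and 97.6 in controls. The knockout effects of the lines were also compared directly. None of the 10 was called by edgeR (0.178% of genes tested; 1.68% with the library number as a block) or by DESeq2 (0.734%), 1 had an unadjusted p under 0.05, and that gene was COX1. Its Hepa1-6 effect minus its B16 effect was -0.64 (SE 0.25, adjusted p = 0.608; adjusted p = 0.0805 with the library number as a block). Against the control of the same number, COX1 was lower in 5 of 6 Hepa1-6 knockout libraries and higher in 6 of 6 B16 knockout libraries.

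**Figure D3:**
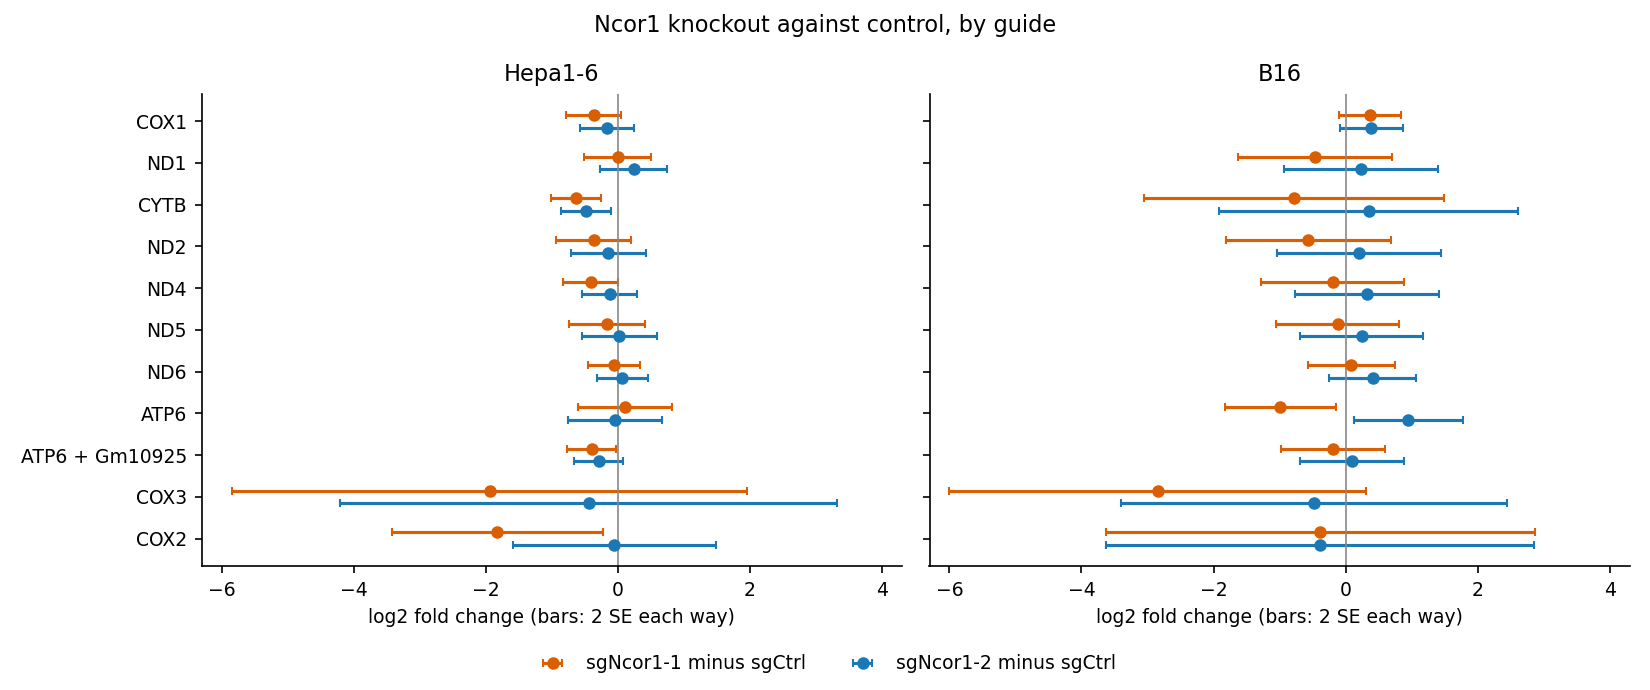
Fitted log2 fold change of each gene with sgNcor1-1 (orange) and sgNcor1-2 (blue) against control in Hepa1-6 (left) and B16 (right); bars are 2 SE each way, 3 libraries per group. Both guides have CYTB below 0 in Hepa1-6 and COX1 above 0 in B16, and the intervals of COX3 are the widest in Hepa1-6.

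In B16 the levels moved with the number of the library. The number entered the fit beside the group, and 5 of the 10 genes were called by an F test over both differences between numbers: CYTB, ND1, ND2, ND4 and ND5, where 30.2% of genes tested were called. That share moved with single libraries: 3724 genes were called with all 9 libraries, 1244 without sgNcor1-2 2 and 5786 without sgNcor1-1 1, the lowest and highest of the 9 fits that left 1 out. CYTB was 1634, 1146 and 2497 CPM in the libraries numbered 2 (sgCtrl, sgNcor1-1 and sgNcor1-2), 699, 162 and 525 in those numbered 1 and 169, 148 and 157 in those numbered 3. All 3 libraries numbered 2 lay above the other 6, and all 3 numbered 3 lay within 147.7 to 168.7 CPM. The fitted log2 differences were 2.04 for number 2 minus 1 and -1.35 for number 3 minus 1 (adjusted p = 0.00341, edgeR). The call held in 9 of 9 fits that left out 1 library, with adjusted p from 0.00033 to 0.0261.

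ND1 was 1264, 1090.0 and 1921 CPM in libraries numbered 2, 929.8, 319 and 787 in those numbered 1 and 515, 557 and 479 in those numbered 3 (number 2 minus 1: 1.12; adjusted p = 0.0217, edgeR). ND2 gave 1.07 (adjusted p = 0.0167, edgeR), ND4 0.97 (adjusted p = 0.0146, edgeR) and ND5 0.87 (adjusted p = 0.00852, edgeR) for number 2 minus 1. For number 3 minus 1 these 4 genes lay between -0.53 and -0.27. For CYTB and these 4 genes the number 2 libraries all lay above the other 6, as in 14% of genes tested. The calls of the 4 depended on single libraries: 3 of the 10 genes were called without sgCtrl 2, 1 (CYTB) without sgNcor1-2 2 and 2 (CYTB and ND5) without sgNcor1-2 3. ND1 was also lost without sgCtrl 3 (adjusted p = 0.0614, edgeR). Without sgNcor1-1 2, ND1 (adjusted p = 0.0765, edgeR) and ND2 (adjusted p = 0.0641, edgeR) were lost.

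The genes did not move by one factor. COX1 gave 0.27 for number 2 minus 1 (adjusted p = 0.29, edgeR), and ND6, on the other strand, 0.62 (adjusted p = 0.134, edgeR). ATP6 + Gm10925 gave 0.41 and -0.58 for the differences from number 1 (adjusted p = 0.0297, edgeR). Along the heavy-strand genes the number 2 minus 1 differences were 1.12 at ND1, 1.07 at ND2, 0.27 at COX1, 0.41 at ATP6 + Gm10925, 0.97 at ND4, 0.87 at ND5 and 2.04 at CYTB. They were smallest at COX1 and largest at CYTB, with no single direction along the chromosome. COX2 and COX3, copied over nearly their whole length on chromosome 1, are not in this series. COX1 and ND4 are in it, although they too had values with a fraction, in 15 and 8 of 18 libraries. The per-length ratio of ND1 to CYTB was 0.92 to 1.14 in the B16 libraries numbered 2, 1.59 to 2.35 in those numbered 1 and 3.65 to 4.50 in those numbered 3, with no overlap. That of COX1 to CYTB ran from 5.42 to 10.0 in number 2 and from 47.5 to 66.9 in number 3, while the number 1 libraries spread from 10.7 to 75.9, the highest being sgNcor1-1 1.

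The library sgNcor1-1 1 that stood apart had CYTB at 162.1 CPM, in the range of the libraries numbered 3, while its COX1 stood at 16623 CPM. Without it, 6 of the 10 genes were called by number, COX1 being the addition. Other transcripts moved with the B16 numbers too. All 12 melanocyte markers were called by number, and their summed level was 16208 to 21527 CPM in libraries numbered 1, 16758 to 24280 in those numbered 2 and 7138 to 7827 in those numbered 3. Nuclear-retained RNAs, a list that holds Malat1 and Neat1, summed to 285.6 to 364.4 CPM in the libraries numbered 2 and to 569.9 to 1443 in the other 6, and 2 of the 4 tested were called. Of 22 nuclear genes for mitochondrial RNA processing and turnover, 10 were called by number beside 30.2% of all genes tested. Among nuclear complex I subunits, 1 of 36 was called, and their median was -0.08 for number 2 minus 1. In bulk RNA, fewer cells of a kind and less RNA per cell cannot be told apart. The part of these transcripts in the differences of the 10 genes was not tested.

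In Hepa1-6, ND2 and ND5 were the 2 genes of the 10 called by number, where 30.8% of genes tested were called (3842 genes; 800 without sgNcor1-1 1 and 5448 without sgCtrl 2, the lowest and highest with 1 library left out). ND1 was not called by edgeR (adjusted p = 0.0686), but was by DESeq2's likelihood ratio test (adjusted p = 0.0454) and by edgeR with no filter on low counts (adjusted p = 0.0379), without sgCtrl 1 (adjusted p = 0.0296) and without sgCtrl 3 (adjusted p = 0.0196). ND5 was 911, 742 and 941 CPM in the libraries numbered 1 (sgCtrl, sgNcor1-1 and sgNcor1-2), 493, 612 and 563 in those numbered 2 and 671, 499 and 604 in those numbered 3. The libraries numbered 1 lay above the other 6, with log2 differences of -0.62 for number 2 minus 1 and -0.55 for number 3 minus 1 (adjusted p = 0.0226, edgeR). ND6 was lowest in the 3 libraries numbered 2, without overlap (1.23% of genes tested), and was not called (adjusted p = 0.231, edgeR). ND2 gave -0.63 and -0.49 (adjusted p = 0.0258, edgeR). Neither call held without sgNcor1-1 1, without sgNcor1-2 1, without sgNcor1-2 2 or without sgNcor1-2 3, when 0 of the 10 were called and adjusted p for these genes lay between 0.073 and 0.174. CYTB, which was called by number in B16, gave -0.12 and -0.05 in Hepa1-6 (adjusted p = 0.825, edgeR). The CYTB differences by number were not compared between the lines by a test. Hepatocyte markers summed to 2691 to 4554 CPM in the Hepa1-6 libraries numbered 1 and to 2154 to 3222 in the others, so that they overlapped. Apoe, which is in that sum, averaged 1834 CPM in Hepa1-6 and 1440 in B16, so the sum is not particular to hepatocyte identity. Other lists separated: fibroblast markers summed to 1411 to 1592 CPM in the libraries numbered 1 and to 707 to 1219 in the others, and immune markers to 15.6 to 33.6 and 47.8 to 106.5. Only 2 of 8 fibroblast and 2 of 8 immune markers averaged at least 1 CPM in Hepa1-6, so these sums do not measure amounts of such cells. Nuclear-retained RNAs summed to 635 to 743 and 816 to 1295 CPM, and replication-dependent histone mRNAs to 93.0 to 122.5 and 149.7 to 387.6. The part of these lists in the ND2 and ND5 differences was not tested.

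**Figure D4:**
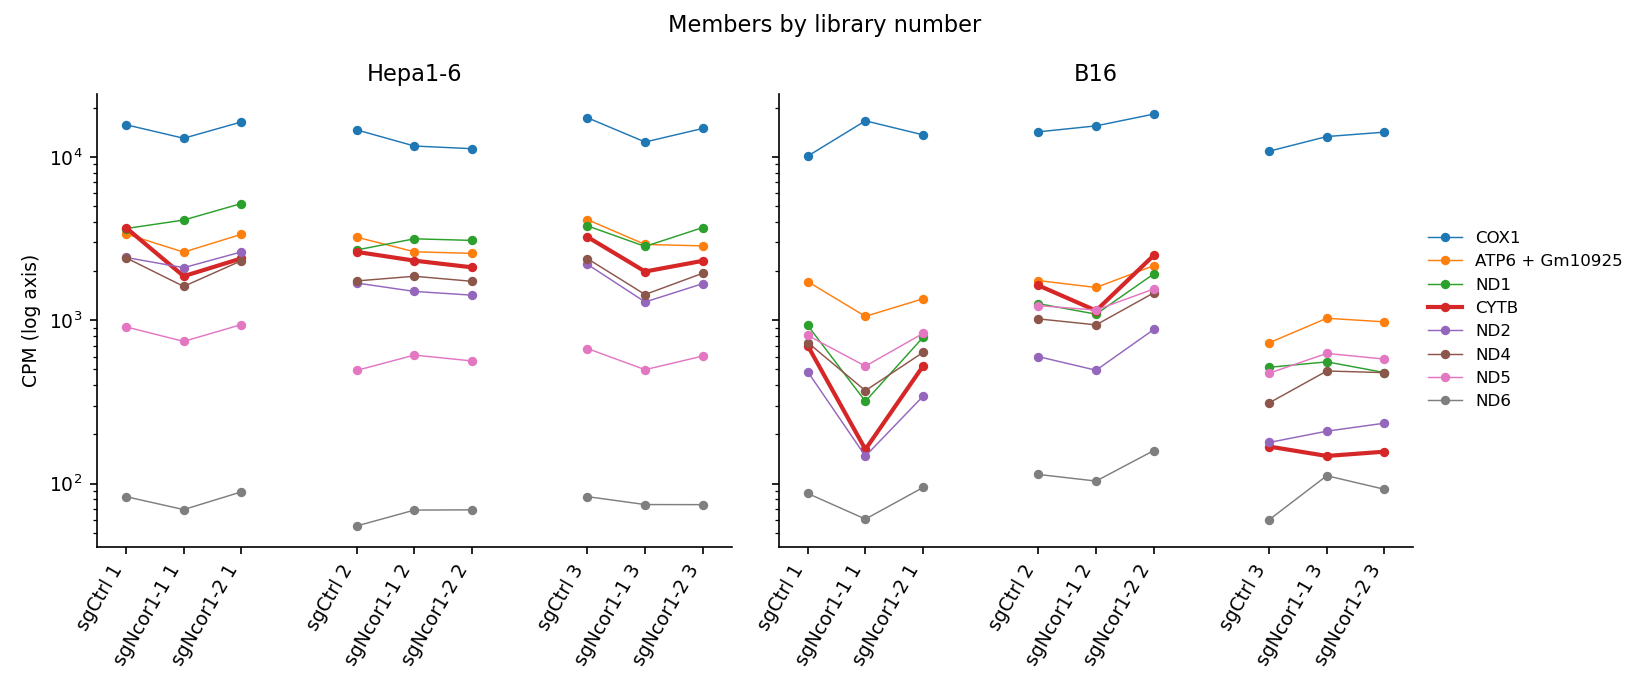
Level in CPM (log axis) of 7 of the 10 genes and of ATP6 + Gm10925 in each library of Hepa1-6 (left) and B16 (right), grouped by library number; lines join the 3 guides of a number. In B16 CYTB (thick red) runs from 147.7 to 2497 CPM and is highest in the libraries numbered 2, and in Hepa1-6 it runs from 1862 to 3685.

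Control libraries of both lines were compared in a joint fit of the tables. Of the 10 genes 4 were called, all higher in Hepa1-6, where 29.6% of genes tested were called higher and 29.8% lower (59.4% in all). ND2 was 2424, 1690.2 and 2199.9 CPM in Hepa1-6 controls and 484, 599 and 179 in B16 controls, a log2 difference of 2.36 (SE 0.53, adjusted p = 0.00122, edgeR) with no overlap. ND1 was higher by 1.94 (SE 0.49, adjusted p = 0.00269, edgeR) and ND4 by 1.70 (SE 0.44, adjusted p = 0.00332, edgeR). The ATP6 row was higher by 1.76 (adjusted p = 0.00199, edgeR) and ATP6 + Gm10925 by 1.39 (SE 0.32, adjusted p = 0.00141, edgeR). With the libraries numbered 3 left out of both lines, ND1 (1.59, adjusted p = 0.0512) and ND4 (adjusted p = 0.0564) were no longer called and 2 of the 10 were.

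ND5 and ND6 were not called. ND5 was 911, 493 and 671 CPM in Hepa1-6 controls and 808, 1228 and 474 in B16 controls, and its log2 difference was -0.24 (interval of 2 SE each way, -1.04 to 0.56). ND6 gave -0.20 (-0.77 to 0.36). Both point estimates were below 0, but both intervals include 0. CYTB was 3685, 2621 and 3236 CPM in Hepa1-6 controls and 699, 1634 and 169 in B16 controls without overlap, and its log2 difference of 1.97 (SE 0.89) was not called by edgeR (adjusted p = 0.0652). DESeq2 called it (adjusted p = 0.0247), as did edgeR without 1 of the B16 libraries sgCtrl 2, sgNcor1-1 2, sgNcor1-2 2 or sgNcor1-2 3 (adjusted p from 0.026 to 0.0408) and in the fit without the libraries numbered 2 (adjusted p = 0.00498). COX1 differed by 0.47 (SE 0.21, adjusted p = 0.0564, edgeR), and was called by DESeq2 (adjusted p = 0.0154) and by edgeR without B16 sgCtrl 2 (adjusted p = 0.0351) or B16 sgNcor1-1 1 (adjusted p = 0.041). DESeq2 called 6 of the 10 genes and 62% of all genes tested. A fit with the library number as a block called 6 of the 10 and 72.2% of genes tested, but nothing ties a number of one line to the same number of the other, so its p-values leave out variation between numbers.

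Nuclear genes of the same complexes had a median on the other side of 0. Of 36 nuclear subunits of complex I, 19 were called lower and 2 higher in Hepa1-6 controls (median log2 difference -0.70, beside 0.0033 over all genes tested). For complex III 5 of 9 were called lower (median -0.83), for complex IV 4 of 11 (median -0.48) and for the ATP synthase 10 of 15 (median -0.65), with none higher in these 3 lists. Of all genes tested 29.8% were called lower and 29.6% higher, so that the share of complex IV lay near the background. Of 22 genes for mitochondrial RNA processing and turnover, 10 were called higher and 2 lower, with a median of 0.59. Mitochondrial transcription factors split evenly, 3 higher and 3 lower of 11. RNA per cell and the number of mitochondria were not measured, so levels are relative to all poly(A) RNA of a line.

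**Figure D5:**
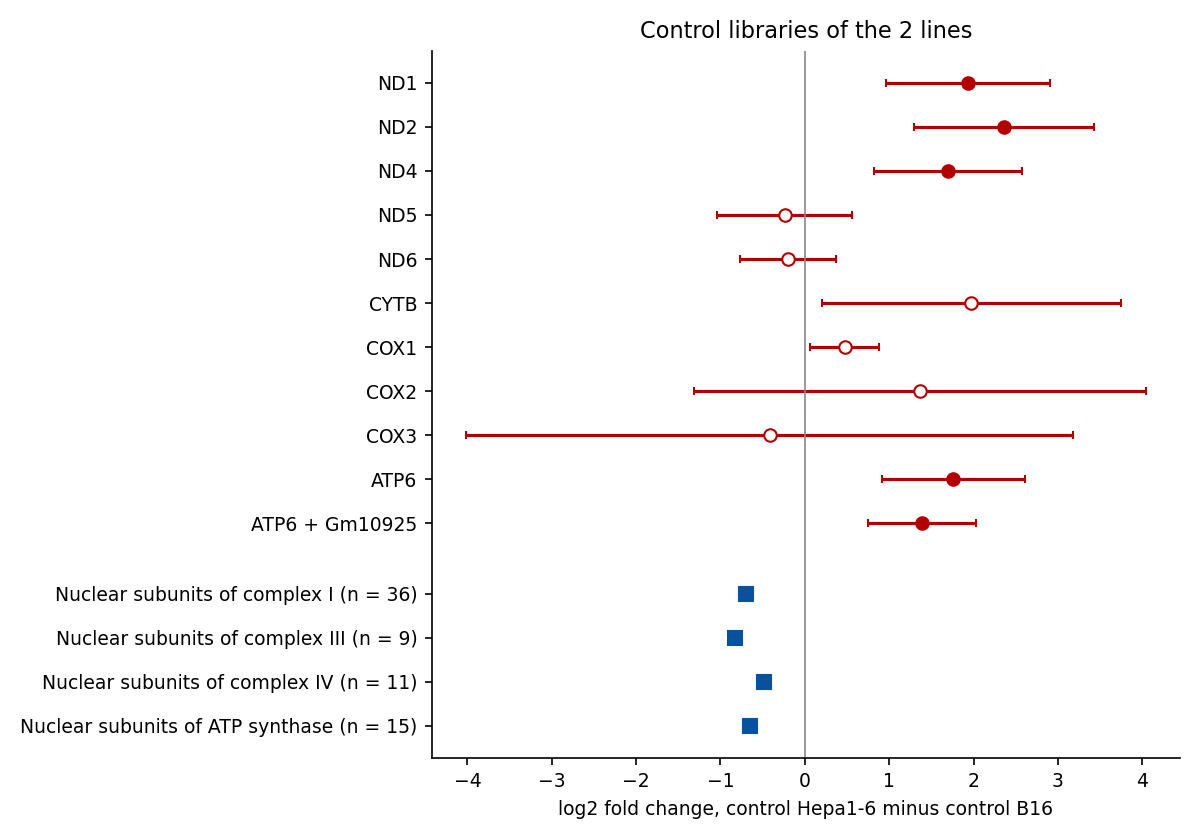
Log2 difference between control Hepa1-6 and control B16 libraries (3 each) for each gene (red; bars are 2 SE each way, filled where the adjusted p is under 0.05) and median over the nuclear subunits of each complex (blue squares, n genes tested). ND1, ND2, ND4 and ATP6 lie above 0 and are filled, and all 4 nuclear medians lie between -0.83 and -0.48.

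The nuclear partners were also read under Ncor1 knockout. In Hepa1-6 none of the 36 nuclear complex I subunits was called, but 34 of 36 had a log2 fold change above 0 (median 0.21), where 6558 of 12458 genes tested did. Ndufa8 gave 0.43 (SE 0.14, adjusted p = 0.32, edgeR), Ndufs7 0.42, Ndufc1 0.60 and Ndufa2 0.57. Complex III had 9 of 9 above 0 (median 0.08), complex IV 11 of 11 (median 0.17) and the ATP synthase 14 of 15 (median 0.14), none called. The mitochondrial ribosome, which translates only the mitochondrial mRNAs, had 57 of 76 above 0 (median 0.21) and 0 called, with Mrps16 at 0.77 and Mrpl17 at 0.70. Genes of a list are measured in the same libraries, so these counts are not independent. Among 11 genes of mitochondrial transcription 5 were above 0 (median -0.11) and 0 called; the 22 genes for RNA processing and turnover had 13 above 0 and 0 called, with Supv3l1, a helicase of the mitochondrial RNA degradosome, at 0.47 (SE 0.18, adjusted p = 0.384, edgeR). Other lists were read beside them. Replication-dependent histone mRNAs had 11 of 11 above 0 (median 0.63) and 0 called, and summed to 122.5 to 230.1 CPM in controls and 93.0 to 387.6 in knockout libraries. Nuclear-retained RNAs had 4 of 5 below 0 (median -0.28) with 1 called lower, and summed to 743 to 1295 and 635 to 1045 CPM. Fibroblast markers had 3 of 3 below 0 (median -0.86) and 0 called, at 1173 to 1411 and 707 to 1592 CPM. Only 2 of the 8 in that list averaged at least 1 CPM in Hepa1-6. The summed levels of all 3 lists overlapped between groups, and their part in the CYTB and subunit values was not tested. In B16 the medians of the complex I, III, IV and ATP synthase lists were 0.01, 0.02, -0.06 and 0.00058, with 0 called in each.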

How the data were processed

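Poly(A) RNA of 18 libraries was sequenced on a NovaSeq, per the labels' protocols. The submitters' processing notes name FastQC 0.12.1, Trim Galore 0.6.7, Bowtie2 2.2.5, RSEM 1.2.8 and mm10; the gene annotation used for counting is not stated in them. The deposited values are expected counts per gene, which the authors left unnormalized and in which reads shared by several genes are divided among them. They were rounded, filtered (filterByExpr), scaled by TMM and tested with edgeR 4.0.16 (quasi-likelihood, R 4.3.3, limma 3.58.1), with adjustment over all genes tested and a threshold of 0.05; DESeq2 1.42.0 was an alternative. CPM values used library sizes scaled by the TMM factors. Each line was fitted on its own 9 libraries, and the line comparisons on all 18. The script was tested on simulated counts with known changes. A log2 change of 1 either way was recovered in 27% (Hepa1-6 knockout), 15% (B16 knockout) and 6% (line difference) of changed genes. A change of 2 was recovered in 80%, 70% and 53%. In the test by number, a change of 1 placed in the libraries numbered 2 was recovered in 5% (Hepa1-6) and 3% (B16). A change of 2 there was recovered in 64% and 57%. The simulated spread came from a fit without the number. A gene that was not called may therefore still have changed. Nuclear copies were found with BLAST 2.17.0 on GENCODE M21 transcripts.

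The members and the gene lists were chosen with earlier results of these data known. All 10 genes are named whatever their p, with up to 4 genes of each other list by smallest p in a knockout comparison. Libraries with the same number deviated together in B16 (correlations of 0.50 to 0.74 for pairs of libraries). In Hepa1-6 the correlations ran from 0.047 to 0.908. The main knockout fits of both lines used group means without the number, and the fit with the number as a block was an alternative. Between 1.34% and 3.10% of a library's counts fell on the 10 genes.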

Additional observations from a re-analysis of the deposited data

How the results depend on the processing

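DESeq2 called 1 of the 10 genes (CYTB) in the Hepa1-6 knockout, where edgeR called 0. Leaving out 1 library gave 0 to 3 of the 10 genes called by number in Hepa1-6 and 1 to 6 in B16, while the count over all genes moved from 3842 to between 800 and 5448 and from 3724 to between 1244 and 5786. The count over all genes in the knockout moved from 25 to between 6 and 19 in Hepa1-6 and from 4 to between 1 and 3 in B16. Leaving out the libraries numbered 3 gave 2 genes called between the control lines; the cause was not tested. Summing ATP6 with its copy and leaving out the libraries numbered 2 or 3 were chosen after seeing the data. With the library number as a block, no knockout call of the 10 genes changed; CYTB in Hepa1-6 came to -0.55 (adjusted p = 0.0522, edgeR). The block raised the genes called among all tested from 25 to 525 in the Hepa1-6 knockout, from 4 to 48 in B16 and from 25 to 236 for the line difference. DESeq2 called 344, 43 and 103 there. Without the libraries numbered 2 or 3 the Hepa1-6 count was 0. The B16 count was 0 without those numbered 1 or 3, 1 without those numbered 2 and 17 with no filter on low counts. The line difference had 49 genes called without the libraries numbered 1 and 4 without those numbered 2 or 3. For single guides, edgeR called 6 (sgNcor1-1) and 10 (sgNcor1-2) genes in Hepa1-6 and 1 each in B16; the block gave 81, 100, 11 and 22, DESeq2 131, 152, 29 and 31, and no filter 11 for sgNcor1-1 in Hepa1-6 and 2 and 3 in B16. Without the libraries numbered 1, sgNcor1-1 in Hepa1-6 had 12, and without those numbered 2 or 3 all single-guide counts were 0, as were those of B16 without number 1. No direction of a called gene reversed. The B16 knockout value of CYTB turned from -0.22 to 0.72 without sgCtrl 2 and to 0.04 without the libraries numbered 1. With 3 libraries a group, the spread between libraries sets the limit for most genes, and divided reads for ATP6, COX2 and COX3. COX1 and ND4 also had values with a fraction, in 15 and 8 of 18 libraries. Reads given to their copies were not followed, so their levels carry this limit too.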

Other observations

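The 3 other mitochondrial mRNAs, ND3, ND4L and ATP8, were not called in either knockout comparison. Between control lines, ND3 was higher in Hepa1-6 by 3.49 (SE 0.91) and ATP8 by 1.17 (SE 0.42) on the log2 scale, both called by edgeR beside 29.6% of all genes called higher, and ND4L by 0.98 (SE 0.99), not called. ND3 ran from 22.2 to 49.5 CPM in Hepa1-6 libraries and from 0 to 17.3 in B16 libraries. ND3 and ND4L also have copies on chromosome 1 and values with a fraction in 17 of 18 libraries each. The ND4L row held 9.11% to 22.0% of the reads given to it or its copy Gm10222 in Hepa1-6 and 0% to 20.9% in B16, so these are levels of divided reads.

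The nuclear genes whose profile over the 9 libraries was closest to the summed level of the 10 genes were Metap1d, Golph3l and Ifih1 in Hepa1-6, with root mean square differences of 0.10, 0.11 and 0.12 on the log2 scale among 9784 genes compared. In B16 they were B3glct, Cdv3 and Ube2q1, at 0.077, 0.080 and 0.096 among 10238 genes. The summed level itself varied by 0.21 in Hepa1-6 and 0.31 in B16.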
